A study of Mus musculus with 12 samples.

Results

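The 115 genes described here encode transcription factors with a homeobox, basic helix-loop-helix (bHLH), forkhead, ETS or high mobility group (HMG) domain. They are the protein-coding genes whose factor family, as the authors annotated it, names one of these domains in at least 1 of 4 deposited tables of differential expression. Tcf7 and genes with names starting in Smarc, Arid, Kmt or Ppar were left out by the same rule. The 115 genes were drawn from 9338 listed genes, of which 6886 were protein-coding, and comprised 44 homeobox, 36 bHLH, 16 HMG, 12 ETS and 7 forkhead genes. The rule used the family names alone and no measured value beyond the listing itself, though it was set with earlier results of these data known. The homeobox label also took in Cers2 and Cers4, which encode ceramide synthases.

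RNA was sequenced from CD31+ lung cells of 12 male C57Bl/6J mice carrying TET2 fl/fl alleles, 3 in each of 4 groups, to ask what endothelial loss of TET2 and a fat-rich diet change. Cre-positive mice (TET2 KO) carried Cdh5-CreERT2, a tamoxifen-inducible Cre driven by the promoter of an endothelial cadherin, and Cre-negative mice were the WT controls. All 12 mice received 40 mg/kg tamoxifen on 3 days when 6 to 8 weeks old, and 1 week later either began a high fat diet (HFD, 60% of kcal from fat) or stayed on chow (13%), for 20 weeks. The groups were therefore WT chow, TET2 KO chow, WT HFD and TET2 KO HFD. Reads counted on genes came to 36.7 to 56.8 M per library, and WT HFD replicate 1 was the deepest. Each table compares 1 pair of groups and lists only genes with an unadjusted p under 0.05 in the authors' own test, so a factor missing from a table was not analysed in that comparison, and a high share of listed genes passing a second test follows from the listing. Tet2 itself was not listed in either genotype comparison, so its level could not be used to check the KO label here. It was listed for diet in WT, with 4296, 4463 and 4750.2 normalized counts on HFD and 3326, 3629.8 and 3642 on chow.

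The 5 families differ in how they read DNA. Homeobox proteins of the HOX clusters record position along the body and work with partners of the TALE class such as MEIS and PBX. bHLH proteins bind E-box motifs as dimers, and the Id proteins, which lack the basic region, block them. ETS factors such as ERG and FLI1, and the SOXF group of HMG factors (SOX7, SOX17 and SOX18), are best known in blood vessels for setting up and keeping endothelial identity, while FOXF1 of the forkhead family is needed for the development of lung mesenchyme and capillaries. HEY1 and HES1 are bHLH repressors switched on by Notch.

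The sequences 250 bases before the start site of 4 factors are printed because the letters of these motifs lie, or do not lie, in front of the genes with the lowest p-values for diet in WT among members with a single RefSeq start site. They are from RefSeq on GRCm38.p6, read 5′ to 3′ on the strand of the gene, and capitals mark a motif.
Tcf23 (chr5:30968427-30968676, plus strand): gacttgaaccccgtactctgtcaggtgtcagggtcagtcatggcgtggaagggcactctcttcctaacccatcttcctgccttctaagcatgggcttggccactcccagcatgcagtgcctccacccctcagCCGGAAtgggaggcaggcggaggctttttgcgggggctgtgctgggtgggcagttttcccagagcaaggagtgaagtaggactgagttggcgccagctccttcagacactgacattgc
Hoxa5 (chr6:52204588-52204837, minus strand): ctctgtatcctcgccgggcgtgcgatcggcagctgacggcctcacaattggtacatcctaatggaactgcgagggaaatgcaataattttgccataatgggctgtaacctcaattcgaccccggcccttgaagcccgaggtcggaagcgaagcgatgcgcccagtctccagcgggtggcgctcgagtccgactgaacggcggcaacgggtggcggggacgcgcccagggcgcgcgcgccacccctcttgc
Spic (chr10:88683024-88683273, minus strand): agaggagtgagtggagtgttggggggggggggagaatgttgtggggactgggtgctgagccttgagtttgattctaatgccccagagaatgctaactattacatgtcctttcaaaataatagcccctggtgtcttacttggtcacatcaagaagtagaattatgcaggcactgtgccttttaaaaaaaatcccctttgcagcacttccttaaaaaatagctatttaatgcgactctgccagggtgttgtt
Id3 (chr4:136143572-136143821, plus strand): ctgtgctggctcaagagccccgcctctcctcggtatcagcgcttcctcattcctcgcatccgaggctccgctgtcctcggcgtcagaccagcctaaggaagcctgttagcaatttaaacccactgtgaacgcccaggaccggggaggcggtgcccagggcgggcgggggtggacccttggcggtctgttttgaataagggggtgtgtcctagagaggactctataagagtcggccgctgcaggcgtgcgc
Of the 5 motifs searched on both strands, the ETS core CCGGAA was found once, 118 bases before the start of Tcf23, and the windows of the other 3 genes held none. RefSeq promoters were matched for 81 of the 115 factors, in 108 windows. CCGGAA was present in 13.9% of these windows and in 12.03% of all 32851 promoters. The E-box CACGTG was present in 10.2% and 6.02%, the homeobox core TAATTA in 5.56% and 4.84%, the SOX core AACAAT in 8.33% and 9.42%, and the forkhead core TGTTTAC in 0.926% and 3.17%. CACGTG and TAATTA are palindromes, and no motif contains another. A match describes the letters only.

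Most of these factors were transcribed at a low level. FPKM divides reads by gene length and library total, so it allows genes to be compared, and averaged over its listed libraries it was below 1 for 47 factors, between 1 and 10 for 34, and 10 or more for 34. The median was 1.77 FPKM over all 115 factors. By family the median level was 17.1 FPKM for ETS, 3.78 for HMG, 2.60 for bHLH, 1.70 for forkhead and 0.632 for homeobox genes. Spib, an ETS factor of B cells and plasmacytoid dendritic cells, had 51.9, 55.8 and 54.3 FPKM in the 3 WT HFD libraries. In the same libraries Foxf1 had 143, 120 and 70.0 FPKM, Id1 had 108, 67.9 and 75.1 and the homeobox repressor Tgif1 had 30.1, 41.6 and 44.9. Means over all listed libraries cover different groups for different genes, so they were not ranked.

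The label of the cells was checked against fixed marker genes. For WT diet, 12 of 13 endothelial markers were listed and none was at 0 in any library, with a summed level of 347, 298 and 843 FPKM in the WT chow libraries and 1573, 1259 and 889 FPKM in WT HFD (Cldn5 the most abundant). Markers of other cells were present as well. Listed lung epithelial markers, led by Scgb1a1 of club cells, summed to 4386, 5692 and 5887 FPKM in WT chow and 4464, 2294 and 4651 FPKM in WT HFD. Listed monocyte and macrophage markers summed to 225, 339 and 285 FPKM in WT chow and 291, 251 and 409 FPKM in WT HFD, with Csf1r the most abundant. Because these levels differed, the libraries were also scaled to the endothelial markers, a choice made after seeing the data. Results under that scaling are given for many of the factors and not for other genes of the fixed lists. In such mixed samples, fewer cells of a type and less RNA per cell cannot be told apart.

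HFD against chow in WT mice gave the longest list, 87 of the 115 factors. Of these, 77 (88.5%) passed edgeR's quasi-likelihood test at an unadjusted p under 0.05, against 90.7% of all 7330 listed genes, and 56 were higher and 21 lower on HFD. After adjustment for multiple testing 20 factors had an adjusted p under 0.05, 14 higher and 6 lower, where 16.5% of all listed genes did. Endothelial-marker scaling moved the median of all listed genes by −1.52. With it Tcf23 was the only factor higher at an adjusted p under 0.05, and the others that passed were lower. The libraries of both diets did not overlap for 67 factors (77.0%), below the 86.5% of all listed genes. Among all listed genes, 41.9% were called higher and 48.8% lower. The median log2 fold change of the 87 factors was 0.92, that of all listed genes −0.32 and that of listed protein-coding genes 0.36. By family, the calls higher and lower were 23 and 7 of 37 homeobox, 15 and 9 of 25 bHLH, 9 and 1 of 11 HMG, 6 and 3 of 9 ETS, and 3 and 1 of 5 forkhead genes, directions that turned for 38 of the 87 factors with endothelial-marker scaling.

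**Figure D1:**
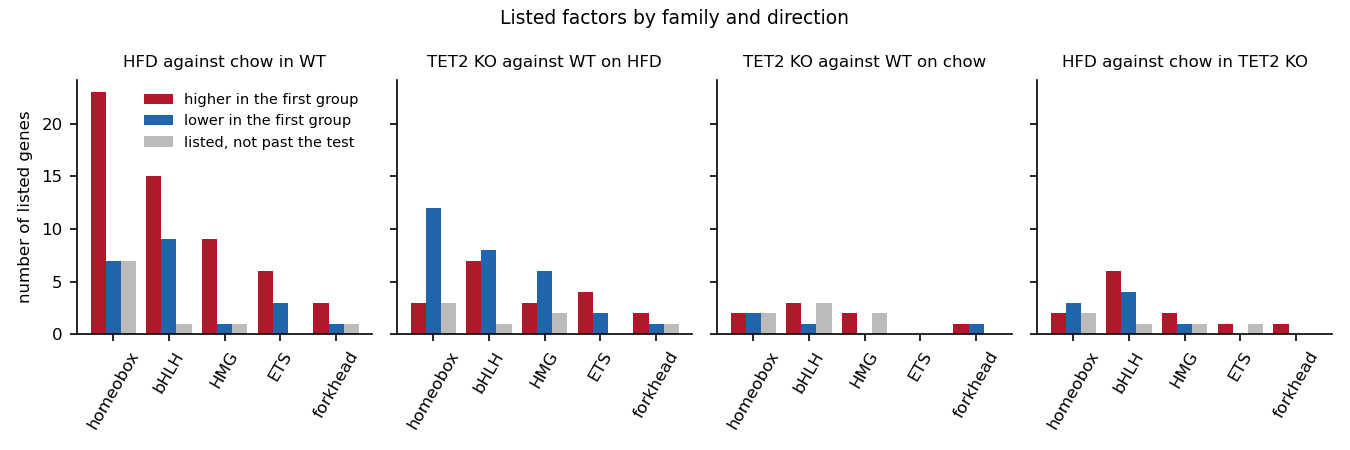
Number of listed factors (y axis) in each of the 5 families that were higher (red), lower (blue) or not past the edgeR test at an unadjusted p under 0.05 (grey), in 4 comparisons. In WT, HFD gave 23 homeobox genes higher and 7 lower, while in KO against WT on HFD 3 were higher and 12 lower. Scaling the libraries to the endothelial markers moved the median of all listed genes by −1.52 and 0.97 in these 2 comparisons. With this shift 38 of 87 and 15 of 55 factors changed direction.

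The SOXF genes, which act in endothelial and arterial differentiation, were all listed and all rose, as did the endothelial markers (median 1.30), and with endothelial-marker scaling none of the 3 was called (0.78 for Sox18, 0.64 for Sox17 and 0.31 for Sox7). Sox18 (chr2:181669836-181671640, mm10) had 6558, 3509 and 3431 normalized counts (reads divided by the authors' size factor) in the 3 HFD libraries and 768, 772 and 1325 in the 3 chow libraries, which differed by 2.24 ± 0.34 on the log2 scale (± is the SE throughout, adjusted p = 0.0380). All HFD libraries lay far above all chow libraries, and the highest chow value was in replicate 3. Sox17 (chr1:4490931-4497354) had 4242, 3013 and 2027 counts on HFD and 561, 526 and 1144 on chow (2.06 ± 0.39, adjusted p = 0.0416). Sox7 (chr14:63943673-63950732) had 6862, 3370.2 and 3251 counts on HFD and 1129, 1022 and 1702 on chow (1.81 ± 0.35, adjusted p = 0.0427). Neither gene overlapped between diets, and in both chow replicate 3 was the nearest to HFD.

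Other HMG genes moved the same way. Sox13 had 5967, 3467 and 2952 counts on HFD and 843, 991 and 1829 on chow (1.76 ± 0.38, adjusted p = 0.0488). Sox4, which acts with Sox11 in progenitor cells, had 807, 709 and 739.8 counts on HFD and 481, 412 and 449 on chow, a smaller difference of 0.75 ± 0.13 (adjusted p = 0.0393) that turned to −0.76 with endothelial-marker scaling. The lymphoid factor Tox2 was higher by 1.80 ± 0.43 on the log2 scale (adjusted p = 0.0579). With endothelial-marker scaling Sox13 was at 0.33 ± 0.51 and Tox2 at 0.52 ± 0.51, and no HMG gene was called higher. The 1 HMG gene called lower was Wdhd1, a DNA replication factor, with 492, 590.1 and 542 counts on HFD and 805, 709 and 767 on chow (−0.49 ± 0.13, adjusted p = 0.0698).

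ETS factors went both ways, and with endothelial-marker scaling Elk3, Erg, Fli1 and Etv6 turned from higher to lower (−0.38, −0.06, −1.13 and −0.88). Elk3, a ternary complex factor that acts in angiogenesis, had 6115, 6011 and 4276 counts on HFD and 2379.7, 2153 and 3026 on chow (1.12 ± 0.19, adjusted p = 0.0393), although its exons overlap Cdk17 on the opposite strand. Erg (chr16:95359169-95586593), which maintains endothelial identity, had 1735, 1891 and 845 counts on HFD and 408, 456 and 833 on chow (1.40 ± 0.38, adjusted p = 0.0724). The lowest HFD value of Erg was just above the highest chow value, so the groups stood apart by little. The related Fli1 was nearer, with 5367, 6952 and 5072 counts on HFD and 5086, 3902 and 3958 on chow, values that overlapped (0.43 ± 0.17, adjusted p = 0.159). Spic, an ETS factor of iron-recycling macrophages, had 178, 172 and 271 counts on HFD and 73.3, 70.2 and 70.9 on chow (1.53 ± 0.25, adjusted p = 0.0393). With endothelial-marker scaling Spic was at 0.10 ± 0.56 and not called. The repressors Erf and Etv3, which lie downstream of growth factor signaling, fell. Erf had 2696, 2932 and 2524 counts on HFD and 4286, 4162 and 4066 on chow (−0.62 ± 0.10, adjusted p = 0.0393), and Etv3 had 4969, 5584 and 6013 counts on HFD and 8057, 7949 and 7816 on chow (−0.52 ± 0.11, adjusted p = 0.0481). Etv6, also an ETS repressor, was higher by 0.49 ± 0.20 (adjusted p = 0.158).

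Among bHLH genes, Tcf23 (chr5:30968662-30977018), the factor whose promoter is shown above, had 371, 260.1 and 268 counts on HFD and 24.7, 40.8 and 41.9 on chow. The log2 fold change was 3.07 ± 0.29 (adjusted p = 0.0380), and the libraries of each diet lay close together. The Notch effector Hey1 (chr3:8663359-8667256) had 2508, 1625 and 1198 counts on HFD and 287, 360.0 and 784 on chow (1.90 ± 0.44, adjusted p = 0.0552). Hes1 had 2767, 2987 and 4278 on HFD and 1319, 1467 and 2139 on chow (1.03 ± 0.24, adjusted p = 0.0569). Neither overlapped between diets, but neither passed adjustment. The bHLH inhibitors Id1, Id2 and Id3 were each higher without overlap, though all 3 turned lower with endothelial-marker scaling. Id3 had 5537, 4267 and 5294 counts on HFD and 2316, 2474 and 3022 on chow (0.95 ± 0.15, adjusted p = 0.0393). Id1 differed by 0.99 ± 0.29 (adjusted p = 0.0823) and Id2 by 0.70 ± 0.22 (adjusted p = 0.0914). Mycn rose from 63.8, 47.6 and 53.7 counts on chow to 128, 126 and 98.5 on HFD (1.09 ± 0.24, adjusted p = 0.0490). Lyl1, a blood and endothelial factor, was higher by 0.56 ± 0.14 (adjusted p = 0.0629). With endothelial-marker scaling Hes1, Mycn and Lyl1 turned lower (−0.31, −0.45 and −0.98), and Hey1 fell to 0.52 ± 0.51 and was not called. Not all of the family was higher on HFD. The clock factor Arntl2 had 14.8, 23.3 and 35.3 counts on HFD and 46.6, 103 and 70.9 on chow (−1.60 ± 0.44, adjusted p = 0.0713).

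Of the 37 listed homeobox genes 81.1% were called, below the 90.7% of all listed genes. Hoxa5 (chr6:52201754-52204587), which patterns the developing lung, had 1195, 884 and 566 counts on HFD and 148, 130.2 and 246 on chow (2.33 ± 0.35, adjusted p = 0.0380). It was 1 of 12 listed HOX cluster genes, of which 11 were called and all higher, with a median log2 fold change of 1.58, although Hoxa2, Hoxa6 and Hoxb3 turned lower when libraries were scaled to the endothelial markers. The others, chosen for mention after their values were seen, had lower counts, and of these only Hoxb6 passed adjustment beside Hoxa5. Hoxb6 had 34.0, 33.8 and 49.2 counts on HFD and 9.52, 12.5 and 14.0 on chow (1.69 ± 0.33, adjusted p = 0.0438). Hoxb5 had 417, 317 and 272 on HFD and 84.7, 83.8 and 176 on chow (1.55 ± 0.35, adjusted p = 0.0530) and overlaps its antisense gene Hoxb5os. With endothelial-marker scaling Hoxb6 was at 0.33 ± 0.69 and Hoxb5 at 0.17 ± 0.54, neither called. Hoxa6 did not pass (1.29 ± 0.55, adjusted p = 0.184). Neighboring HOX genes can share transcripts and exons, and whether counting used the strand is not given in the sources used here, so their reads may not be independent. Of the 115 factors, 40 overlap an exon of another gene, 36 of them on the opposite strand.

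**Figure D2:**
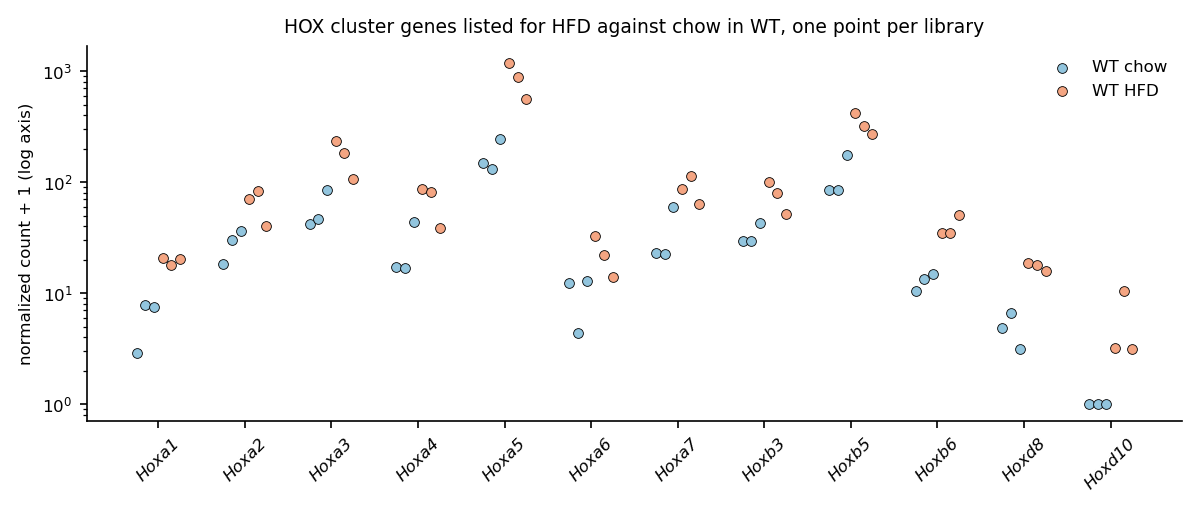
Normalized count plus 1 (log axis) of the 12 HOX cluster genes listed for HFD against chow in WT, 1 point per library, chow in blue and HFD in orange. The HFD points lie above the chow points for 11 of 12 genes (Hoxa4 overlaps), and with endothelial-marker scaling the direction turns for Hoxa2, Hoxa6 and Hoxb3.

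Outside the HOX clusters, Lhx6, a LIM homeobox gene that overlaps the predicted gene Gm27953, rose from 31.4, 39.6 and 51.6 counts on chow to 176, 184 and 102 on HFD (1.91 ± 0.33, adjusted p = 0.0393). With endothelial-marker scaling Lhx6 was at 0.41 ± 0.58 and not called. Meox1, a mesodermal and vascular homeobox gene, had 267, 179 and 195 on HFD and 79.0, 73.6 and 153 on chow (1.07 ± 0.34, adjusted p = 0.0969) and turned lower with endothelial-marker scaling. Hopx, which marks alveolar type 1 cells, was higher by 1.18 ± 0.26 (adjusted p = 0.0504), as was the type 1 cell marker Ager by 1.34 ± 0.29 (adjusted p = 0.0508), while the whole lung epithelial list went both ways (6 of 15 listed, 2 called higher and 2 lower, median 0.16). The part of such cells in the difference was not tested, and Hopx turned lower with endothelial-marker scaling. Of the TALE cofactors, Meis3 fell, with 529, 413 and 499 counts on HFD and 709.8, 920.5 and 787 on chow (−0.75 ± 0.16, adjusted p = 0.0490), and Tgif1 had 7095, 9801 and 10607 on HFD and 13376, 13876 and 16032 on chow (−0.65 ± 0.17, adjusted p = 0.0685). Meis1 lay the other way with overlapping values (0.79 ± 0.33, adjusted p = 0.170) and turned lower with endothelial-marker scaling. Cers2, the ceramide synthase, differed by only 0.28 ± 0.10 (adjusted p = 0.136) and turned lower with endothelial-marker scaling (−1.21 ± 0.53).

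Of the forkhead genes, Foxk1, a regulator of metabolism, rose from 5363, 4679 and 5350.3 counts on chow to 8985, 7794 and 7541 on HFD (0.66 ± 0.12, adjusted p = 0.0393), but turned to −0.86 with endothelial-marker scaling. Foxf1 (chr8:121084386-121088144), which overlaps Gm27530, had 14462, 12093 and 7099 counts on HFD and 2045, 1662 and 6702 on chow (1.69 ± 0.56, adjusted p = 0.106), and chow replicate 3 was close to the lowest HFD mouse. With endothelial-marker scaling Foxf1 was at 0.45 ± 0.52 and not called. Foxd2 was lower (−0.67 ± 0.23, adjusted p = 0.115), and Foxa2, a lung epithelial factor, did not pass (0.93 ± 0.42, adjusted p = 0.205) and turned direction with endothelial-marker scaling.

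A few factors that passed adjustment had few reads and were picked out after their values were seen. Uncx, a developmental homeobox gene, had 0 reads in all 3 HFD libraries and 11, 16 and 8 in chow. Nhlh1 had 1, 1 and 4 reads on HFD and 15, 23 and 26 on chow, and Tcfl5 had 2, 5 and 6 on HFD and 21, 28 and 29 on chow. Their adjusted p were 0.0426, 0.0416 and 0.0442. Hoxd10 ran the other way, with 3, 9 and 2 reads on HFD and 0 in all chow libraries, and did not pass adjustment (adjusted p = 0.116). Tcf21, a bHLH factor of lung fibroblasts that was also picked out later, rose from 12.4, 4.53 and 7.52 normalized counts on chow to 76.8, 7.40 and 33.2 on HFD (2.25 ± 0.83, adjusted p = 0.132). Read counts cover counting error only.

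Endothelial factors and endothelial markers were both higher on HFD in WT. Of a list of 44 endothelial factors, 19 were listed and all 19 were higher on HFD, 6 of them after adjustment, with a median of 1.07, and 18 of these are among the 115 genes. Over the same libraries 11 of 12 listed endothelial markers were called higher, with a median of 1.30. When libraries were scaled to these markers, which lowered the median of all listed genes by 1.52, 1 of the 18 factors was called, and it was Fli1, which was then lower (−1.13 ± 0.53, adjusted p = 0.175). The scaling shifts all genes together, so the number of factors that turn follows largely from the size of the shift. No share of all listed genes under it is given here. Over all 87 factors this scaling gave 2 calls higher and 27 lower in place of 56 and 21, and 38 factors changed direction. These included Ahr, Cers2, Cers4, Elk3, Erg, Etv1, Etv6, Fli1, Foxa2, Foxk1, Hes1, Hlx, Hopx, Hoxa2, Hoxa6, Hoxb3, Id1, Id2, Id3, Irx2, Irx3, Irx5, Lyl1, Meis1, Meox1, Mlx, Msx1, Myc, Mycn, Nkx2-1, Pbx3, Sox11, Sox4, Sox5, Tfap4, Tox and Tox3. Sox7, Sox17, Sox18 and Hoxa5 kept a positive sign without passing, while Tcf23 still passed at 1.58 ± 0.58 (adjusted p = 0.0407). WT chow replicate 3 held the highest chow value for 55 of the 87 factors (63.2%, against 46.0% of all listed genes). It did so for 40 of the 56 factors called higher (71.4%) and 7 of the 21 called lower (33.3%). Shares of all genes called in 1 direction are not given here. Natural killer cell markers rose too, 8 of 8 with a median of 1.58 and a sum of 133, 104 and 172 FPKM on HFD against 60.7, 34.5 and 40.9 on chow (Gzma the most abundant), and their part in the result was not tested. Calls at an adjusted p depended on single mice, since none of the 87 factors passed without any 1 of the WT HFD libraries or without WT chow replicate 2, 1 passed without WT chow replicate 1 and 32 passed without WT chow replicate 3. Without WT HFD replicate 1 the 77 unadjusted calls fell to 50.

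Fixed lists of genes around these factors were read in the same table. Of 22 Notch pathway genes 9 were listed and 9 were higher, with a median of 1.03, where 41.9% of all listed genes were called higher. Endothelial markers rose in the same libraries (11 of 12 listed called, median 1.30). With endothelial-marker scaling Hes1 turned to −0.31 and Hey1 fell to 0.52, neither called, and the other Notch genes have no value under it here. The ligand Dll4 had 3955, 2986 and 2278 normalized counts on HFD and 1204, 1139 and 2167 on chow (1.03 ± 0.31, adjusted p = 0.0834), and the receptor Notch4 had 9923, 6700.2 and 4934 on HFD and 1516, 1484 and 4093 on chow (1.60 ± 0.46, adjusted p = 0.0786). Of 27 targets of the sterol regulator SREBP, itself a bHLH factor, 8 were listed, 7 were lower and 1 (Scd2) higher, with a median of −0.50. In the pathway of the aryl hydrocarbon receptor, a bHLH sensor of xenobiotics and indoles, 3 of 11 genes were listed. All 3 were called, 2 higher and 1 lower, with a median of 0.35. Ahr had 5089, 4689 and 3439 counts on HFD and 2602, 2509 and 2816 on chow (0.74 ± 0.16, adjusted p = 0.0508). Its classical target Cyp1a1 had 5.91, 12.7 and 12.8 counts on HFD and 162, 135 and 258 on chow (−4.16 ± 0.42, adjusted p = 0.0380). The receptor and this 1 target thus lay in opposite directions in the same libraries, and Ahr turned lower with endothelial-marker scaling.

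Of 21 Wnt and TCF/LEF genes 7 were listed and 6 (85.7%) were called, all higher, Rnf43 after adjustment (0.94 ± 0.19, adjusted p = 0.0442). Of all listed genes 90.7% were called and 41.9% called higher. The median of the Wnt list was 1.15, that of the endothelial markers 1.30, and the Wnt genes have no value with endothelial-marker scaling here. Of 19 clock genes 3 were listed, 1 higher and 2 lower, and Per2 fell from 1751, 2273 and 2505 counts on chow to 836, 831 and 1149.8 on HFD (−1.21 ± 0.19, adjusted p = 0.0393). Of 20 targets of hypoxia-inducible factors 5 were listed, 2 higher and 3 lower. Of 19 FOXO targets 6 were listed, 3 in each direction. Of 13 genes of the MYC, MAX and MLX network 5 were listed, 3 higher and 2 lower. Of 7 E proteins and Id inhibitors 3 were listed, all Id genes and all higher. Of 16 TALE genes 9 were listed, 3 called in each direction. The other cell markers listed in these libraries were 2 of T cells, both higher, 7 of monocytes and macrophages, 4 higher and 3 lower, 1 of neutrophils, lower (Retnlg), 2 of mesothelium, 1 called lower, and 4 of fibroblasts and smooth muscle, 2 called higher and 1 called lower, while none of B cells was listed. Their part in the values of the factors was not tested.

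TET2 KO against WT on HFD listed 55 of the 115 factors. Of these 48 were called, 19 higher and 29 lower in KO, where 80.4% of all 3939 listed genes were called (41.9% higher, 38.5% lower). No factor passed adjustment in edgeR, nor did any listed gene (0%), with 0.247 the lowest adjusted p among the factors, while DESeq2 gave 15. With endothelial-marker scaling, which raised the median of all listed genes by 0.97, 21 factors had an adjusted p under 0.05 in edgeR, all higher in KO. Shares of all listed genes with DESeq2 or with that scaling are not given here. The libraries did not overlap for 42 factors, against 74.7% of all listed genes. The median log2 fold change was −0.66, that of all listed genes 0.33 and that of listed protein-coding genes −0.40. By family, the calls higher and lower were 3 and 12 of 18 homeobox, 7 and 8 of 16 bHLH, 3 and 6 of 11 HMG, 4 and 2 of 6 ETS, and 2 and 1 of 4 forkhead genes, and 15 of the 55 factors turned direction with endothelial-marker scaling. This comparison shares the 3 WT HFD libraries with the diet comparison in WT, so opposite directions in both are not separate evidence.

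Sox18 had 2419, 1784 and 951 normalized counts in KO and 6509, 3508 and 3411 in WT (−1.38 ± 0.39, adjusted p = 0.247). Sox17 had 1884, 993 and 1050.1 in KO and 4209.9, 3012 and 2015 in WT (−1.23 ± 0.35, adjusted p = 0.247). Neither overlapped, whereas Sox7 did and was not called (−0.93 ± 0.47, adjusted p = 0.428). Hey1 had 934, 541 and 486 counts in KO and 2489, 1625 and 1191 in WT (−1.44 ± 0.35, adjusted p = 0.247), and Tcf23 had 153, 115 and 72.0 in KO and 368, 260.1 and 266 in WT (−1.39 ± 0.31, adjusted p = 0.247). Foxf1 had 6129, 2846 and 5214 in KO and 14352, 12089 and 7057 in WT (−1.24 ± 0.35, adjusted p = 0.247). For each of these 3 genes every KO library was below every WT library. Elk3 differed by −0.63 ± 0.17 and Id1 by −0.91 ± 0.23 (adjusted p = 0.247 for both), and with endothelial-marker scaling they turned to 0.38 and 0.05. Of 8 listed HOX genes 7 were called, all lower, with a median of −1.34 over the 8, and Hoxa3 and Hoxa7 turned higher with endothelial-marker scaling. Hoxa5 had 498, 309 and 178 counts in KO and 1186, 884 and 563 in WT (−1.42 ± 0.41, adjusted p = 0.247), and Hoxb5 had 197, 109 and 114 in KO and 414, 317 and 270.3 in WT (−1.25 ± 0.29, adjusted p = 0.247). Tox2 was lower by −1.38 ± 0.31 (adjusted p = 0.247).

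The 19 factors higher in KO included ETS and bHLH repressors. Etv3 had 9083, 9315 and 7261 counts in KO and 4931, 5582 and 5978 in WT (0.64 ± 0.16, adjusted p = 0.247). Spib had 8749, 8233 and 10039.6 in KO and 6189, 6698 and 6499.8 in WT (0.48 ± 0.14, adjusted p = 0.247). Both sets were free of overlap. The neural crest factor Sox8 had 152, 119 and 90.6 counts in KO and 37.4, 68.7 and 64.9 in WT (1.09 ± 0.33, adjusted p = 0.247). Mnt, an antagonist of MYC, had 5652, 5347 and 4887 in KO and 3505, 4132 and 4323 in WT (0.41 ± 0.15, adjusted p = 0.258). Tfam, an HMG protein that packages mitochondrial DNA, had 2974, 2399 and 2749.8 in KO and 2023, 2275 and 1658 in WT (0.45 ± 0.17, adjusted p = 0.267). Foxd2 was higher by 0.75 ± 0.23 and Tgif1 by 0.69 ± 0.25, the latter with overlap (adjusted p = 0.247 and 0.258). Myod1, noticed after its values were seen, had 0 reads in all KO libraries and 11, 2 and 4 in WT.

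**Figure D3:**
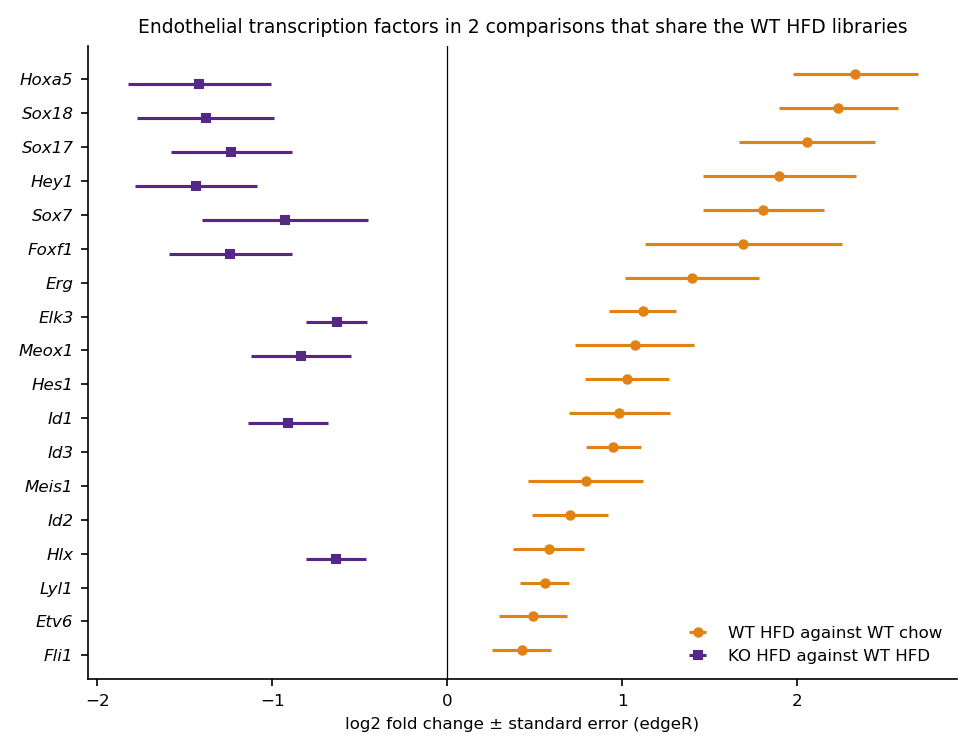
Log2 fold change with standard error (x axis) of the 18 listed endothelial factors for WT HFD against WT chow (orange circles) and, where listed, for KO HFD against WT HFD (purple squares), which share the WT HFD libraries. All circles lie to the right of 0 and all squares to the left, and with endothelial-marker scaling Elk3, Erg, Etv6, Fli1, Hes1, Hlx, Id1, Id2, Id3, Lyl1, Meis1 and Meox1 turn in the first comparison and Elk3, Hlx, Id1 and Meox1 in the second.

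Endothelial markers were lower in KO in the same libraries. Of 13 markers 11 were listed and 9 called, all lower, with a median of −0.98 and a sum of 822, 450 and 503 FPKM in KO against 1497, 1179.8 and 851 FPKM in WT. Of the 44 endothelial factors 11 were listed and 10 called, all lower, with a median of −0.93. Scaling to the markers raised the median of all listed genes by 0.97, and the number of factors that turn follows largely from this shift. No share of all listed genes under it is given here. None of the 9 called endothelial factors among the 115 genes then passed. All 55 factors gave 21 calls higher, each with an adjusted p under 0.05, and 1 lower, and 15 changed direction. These were Ahr, Elk3, Foxa2, Hdx, Hlx, Hopx, Hoxa3, Hoxa7, Id1, Irx3, Meox1, Mlx, Pbx3, Sox5 and Tfap4. Sox17, Sox18, Tcf23, Hey1, Foxf1, Hoxa5 and Hoxb5 kept a negative sign. The type 1 cell genes Hopx (−0.73 ± 0.23) and Ager (−1.06 ± 0.30) were both lower, with adjusted p = 0.248 and 0.247, though Hopx turned higher with the marker scaling. In the fixed lists, 8 of 22 Notch genes were listed, 6 lower and 2 higher (Hes5 and Maml1), and 6 of 21 Wnt genes were listed with 5 called, all lower. Of 4 listed MYC network genes 3 were higher and 1 lower, of 4 listed clock genes 3 were called, all higher, and of 2 listed SREBP targets both were higher. The hypoxia list gave 3 genes, 1 higher and 2 lower, the FOXO list 4 with 2 called higher, the aryl hydrocarbon receptor list only Ahr, lower (−0.59 ± 0.21) but turned higher with the marker scaling, the TALE list 3 with 1 called each way, and the E protein list only Id1. Natural killer (Klrk1 and Ncr1) and mesothelial (Msln) markers were listed but not called, and Ccr2 of monocytes was lower, while no T cell, B cell, neutrophil or fibroblast marker was listed. The count of 48 fell to 27 without WT HFD replicate 1 and to 28 without KO HFD replicate 2.

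TET2 KO against WT on chow listed 19 of the 115 factors. Of these 12 were called, 8 higher and 4 lower in KO, below the 74.7% of all 1298 listed genes called (29.7% higher, 45% lower). No factor and no listed gene (0%) passed adjustment in edgeR, where the lowest adjusted p of a factor was 0.798, and no factor did in DESeq2. The libraries did not overlap for 8 factors, against 74.7% of all listed genes. The median log2 fold change was 0.67, that of all listed genes −0.37 and that of listed protein-coding genes 0.35. No ETS gene was listed. With TMM scaling 13 were called higher and 3 lower, and the share of all listed genes with TMM is not given here.

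Meox1 was the homeobox gene that differed most clearly, with 195, 165 and 211 normalized counts in KO and 77.4, 70.8 and 146 in WT (0.96 ± 0.32, adjusted p = 0.834). All KO libraries were above all WT libraries. Zhx2, a zinc finger homeobox repressor, had 1652, 1681 and 1808 in KO and 1468, 1273 and 1362 in WT (0.33 ± 0.12, adjusted p = 0.890), and Tfap4, a bHLH factor of the cell cycle, had 247, 161 and 198 in KO and 145, 105 and 135 in WT (0.65 ± 0.25, adjusted p = 0.903). These sets also stood apart. Mxi1, which antagonizes MYC, had 1985, 2316 and 2247 in KO and 2528, 2819 and 2864 in WT (−0.33 ± 0.13, adjusted p = 0.915). Foxk1 had 7533, 5518 and 6556 in KO and 5255, 4502 and 5105 in WT (0.40 ± 0.16, adjusted p = 0.916).

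Other differences leaned on 1 KO mouse. Sox18 had 4685, 1172 and 1651 counts in KO and 752, 743 and 1264 in WT (1.44 ± 0.52, adjusted p = 0.868), so KO replicate 1 stood far above the rest and KO replicate 2 was below the highest WT library. Tox2 had 1474, 368 and 384 in KO and 182, 176 and 414 in WT (1.53 ± 0.63, adjusted p = 0.918), with both other KO libraries below the highest WT library. Hoxa5, with 936, 241 and 199.6 in KO and 145, 125 and 235 in WT, did not pass (1.44 ± 0.62, adjusted p = 0.950). KO replicate 1 held the highest KO value for 12 of the 19 factors (63.2%, against 43.7% of all listed genes), and without it 5 were called. Leaving out WT chow replicate 2 left 2 calls, and leaving out WT chow replicate 1 or KO replicate 3 left 7. None of the 13 endothelial markers was listed here. T cell markers were higher (6 called of 7 listed, median 0.68, summing to 167, 133 and 179 FPKM in KO against 125, 81.2 and 98.5 in WT, led by Lck), as were both listed natural killer markers (median 0.78) and both listed monocyte markers (median 0.88). Lung epithelial (4 of 4, median −1.09), mesothelial (5 of 5, −1.89) and fibroblast markers (4 of 4, −1.13) were lower, with Scgb1a1 leading a sum of 2879.9, 2363 and 3105 FPKM in KO against 4299.5, 5643 and 5634 in WT. Their part in the values above was not tested. Of the fixed lists, 6 endothelial factors were listed and 3 called, all higher (Sox18, Hes1 and Meox1). The Notch list gave Hes1 higher, the Wnt list Rnf43 higher (0.69 ± 0.22), the aryl hydrocarbon receptor list Nqo1 lower (−0.67 ± 0.24), the MYC list Mlxipl higher and Mxi1 lower, and Mxi1 also stood for the hypoxia list. The SREBP list gave Fdft1 and the E protein list Id1 and Id3, none called, and no clock, FOXO or TALE gene was listed.

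HFD against chow in TET2 KO listed 25 of the 115 factors. Of these 20 were called, 12 higher and 8 lower on HFD, where 76.4% of all 1628 listed genes were called (29.2% higher, 47.2% lower). No factor passed adjustment in edgeR or DESeq2, against 0.0614% of all listed genes, and the lowest adjusted p was 0.724. The count of 20 fell to between 10 and 13 without KO HFD replicate 1 or 3 or any 1 KO chow library. The libraries did not overlap for 18 factors, against 72.6% of all listed genes. The median log2 fold change was 0.41, and −0.51 both for all listed and for listed protein-coding genes. With TMM scaling, which raised the median of all listed genes by 0.25, the split was 15 higher and 5 lower. The shares of all listed genes above are from the main scaling, and those with TMM are not given here. By family, the calls higher and lower were 2 and 3 of 7 homeobox, 6 and 4 of 11 bHLH, 2 and 1 of 4 HMG, 1 and 0 of 2 ETS, and 1 and 0 of 1 forkhead genes.

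The 8 factors lower on HFD in KO included relatives of MITF and a clock repressor. Bhlhe41, a repressor in the clock that also acts in alveolar macrophages, had 477, 810.5 and 524 normalized counts on HFD and 1372, 1218 and 1036 on chow (−1.0 ± 0.25, adjusted p = 0.724). Mitf, a regulator of lysosomal genes, had 458, 769.7 and 593 on HFD and 1123, 1446 and 875 on chow (−0.92 ± 0.27, adjusted p = 0.724). Its relative Tfec, found in macrophages, had 465, 1028 and 649.7 on HFD and 1532, 1632 and 1001 on chow (−0.96 ± 0.32, adjusted p = 0.730), the highest HFD value being just above the lowest chow value. Tcf7l2, an effector of Wnt, had 1145, 2499.8 and 1723 on HFD and 3124, 4138 and 2523 on chow (−0.87 ± 0.31, adjusted p = 0.735). Monocyte and macrophage markers were lower in the same libraries (3 called of 5 listed, median −0.71), with Lyz2 leading a sum of 2018, 3429.7 and 3151 FPKM on HFD against 4533, 5608 and 4002 on chow, and their part was not tested. Meox1, with 151, 104 and 86.6 on HFD and 194, 167 and 209 on chow (−0.74 ± 0.26, adjusted p = 0.735), and Id1, with 2499.6, 1959 and 1733 on HFD and 5018, 2509.6 and 2673 on chow (−0.72 ± 0.30, adjusted p = 0.760), were lower without overlap.

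Spic was higher on HFD in KO as well, with 105, 215 and 186 counts on HFD and 57.6, 45.5 and 85.0 on chow (1.43 ± 0.36, adjusted p = 0.724) and no overlap. Hmgb3, a chromatin protein of progenitor cells, had 387, 321 and 406 on HFD and 251, 272 and 234 on chow (0.56 ± 0.19, adjusted p = 0.727). The E protein Tcf3 had 8756, 7325 and 8331 on HFD and 5106, 6392 and 6862 on chow (0.41 ± 0.17, adjusted p = 0.772). Both stood apart between diets. The MYC antagonists Mnt (0.40 ± 0.15) and Mxi1 (0.50 ± 0.20) and the mitochondrial factor Tfam (0.46 ± 0.18) were higher, with adjusted p of 0.735, 0.736 and 0.736. Id2 had 2842, 4002 and 5798 on HFD and 3066, 2567 and 2468 on chow, overlapping values (0.64 ± 0.26, adjusted p = 0.756).

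**Figure D4:**
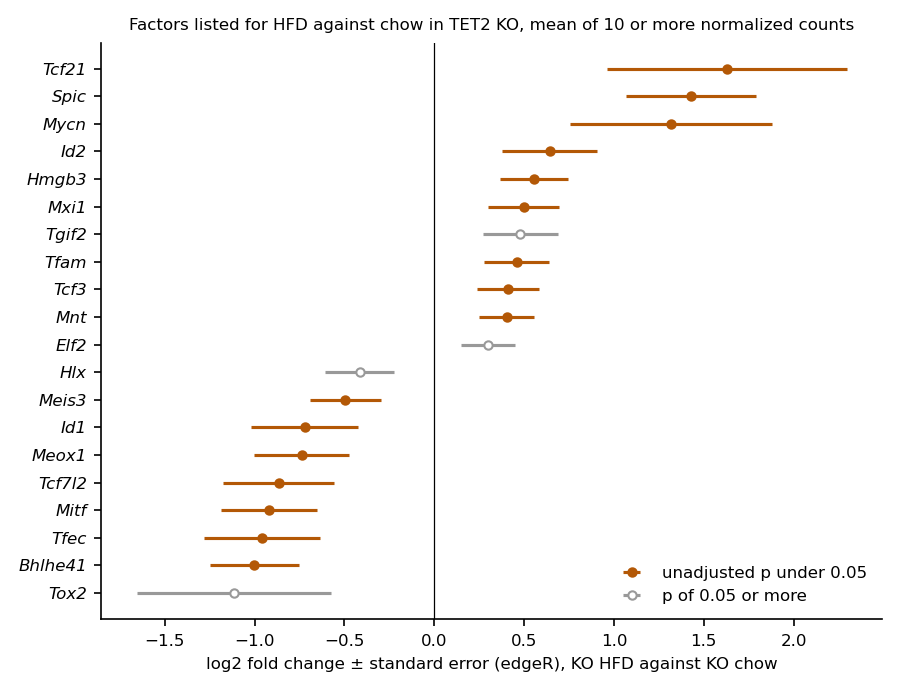
Log2 fold change with standard error (x axis) of the 20 listed factors with a mean of 10 or more normalized counts, KO HFD against KO chow, filled where the unadjusted p is under 0.05 and open where it is not. Spic lies at 1.43 and Bhlhe41 at −1.0, and no adjusted p was below 0.724.

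In the KO libraries 6 of 7 listed mesothelial markers (median 1.94) and 3 of 5 listed fibroblast markers (median 1.21) were called, all higher, the endothelial marker Emcn was higher (0.98 ± 0.32, 1 of 13 listed), the B cell marker Blk was higher, 3 T cell markers were lower, and the epithelial markers Muc5b and Epcam lay in opposite directions, and Gzma of natural killer cells was not called. Their part in the values of the factors was not tested. Of 44 endothelial factors 7 were listed, 1 called higher and 4 called lower. Cyp1a1 was again low on HFD, with 17.2, 13.3 and 5.28 counts against 167, 101 and 75.9 on chow (−3.24 ± 0.50, adjusted p = 0.625), and no other gene of the aryl hydrocarbon receptor list was listed. The MYC list gave 3 genes, all higher, the E protein list 2 higher and 1 lower, the clock list 1 called higher and 1 called lower of 3, the TALE list 1 called lower of 2 and the SREBP list 1 called lower of 2. The hypoxia list gave 1 called higher of 3, the Wnt list only Tcf7l2, the FOXO list 2 genes not called and the Notch list none.

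Only 16 of the 115 factors had values in all 12 libraries, which allowed the effect of diet to be compared between genotypes. An interaction of genotype and diet passed at an adjusted p under 0.05 for 10 of the 16, against 55.3% of the 975 genes with such values, and these p-values do not allow for the selection of the genes by their listing. Each of the 10 was listed in a genotype comparison, while the others were listed only for diet, with the same sign in both genotypes. The outcome thus followed the listing and is not separate evidence that diet acted differently by genotype. For 9 of the 10 the interaction was negative. Endothelial markers moved likewise, with a median of 1.30 for HFD in WT and −0.98 for KO against WT on HFD, and Id1, Meox1, Hlx and Tfap4 turned direction in both of these comparisons with endothelial-marker scaling. The interaction was not fitted with that scaling. Sox18 had 11.4, 11.5 and 19.5 FPKM in WT chow, 96.6, 51.8 and 50.5 in WT HFD, 71.4, 18.2 and 25.3 in KO chow and 35.4, 26.4 and 14.1 in KO HFD. The WT HFD libraries were above all WT chow and all KO HFD libraries, while KO chow overlapped each of the other groups. The interaction was −2.83 ± 0.73 on the log2 scale (adjusted p = 0.0161). Hoxa5 had 1.90, 1.67 and 3.13 FPKM in WT chow, 15.2, 11.3 and 7.19 in WT HFD, 12.3, 3.23 and 2.64 in KO chow and 6.29, 3.94 and 2.28 in KO HFD (−2.87 ± 0.82, adjusted p = 0.0174). Meox1 had 0.850, 0.794 and 1.63 FPKM in WT chow, 2.86, 1.92 and 2.08 in WT HFD, 2.17, 1.86 and 2.35 in KO chow and 1.69, 1.16 and 0.966 in KO HFD (−1.80 ± 0.46, adjusted p = 0.0160). KO chow and WT HFD overlapped in Meox1 and both exceeded WT chow.

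**Figure D5:**
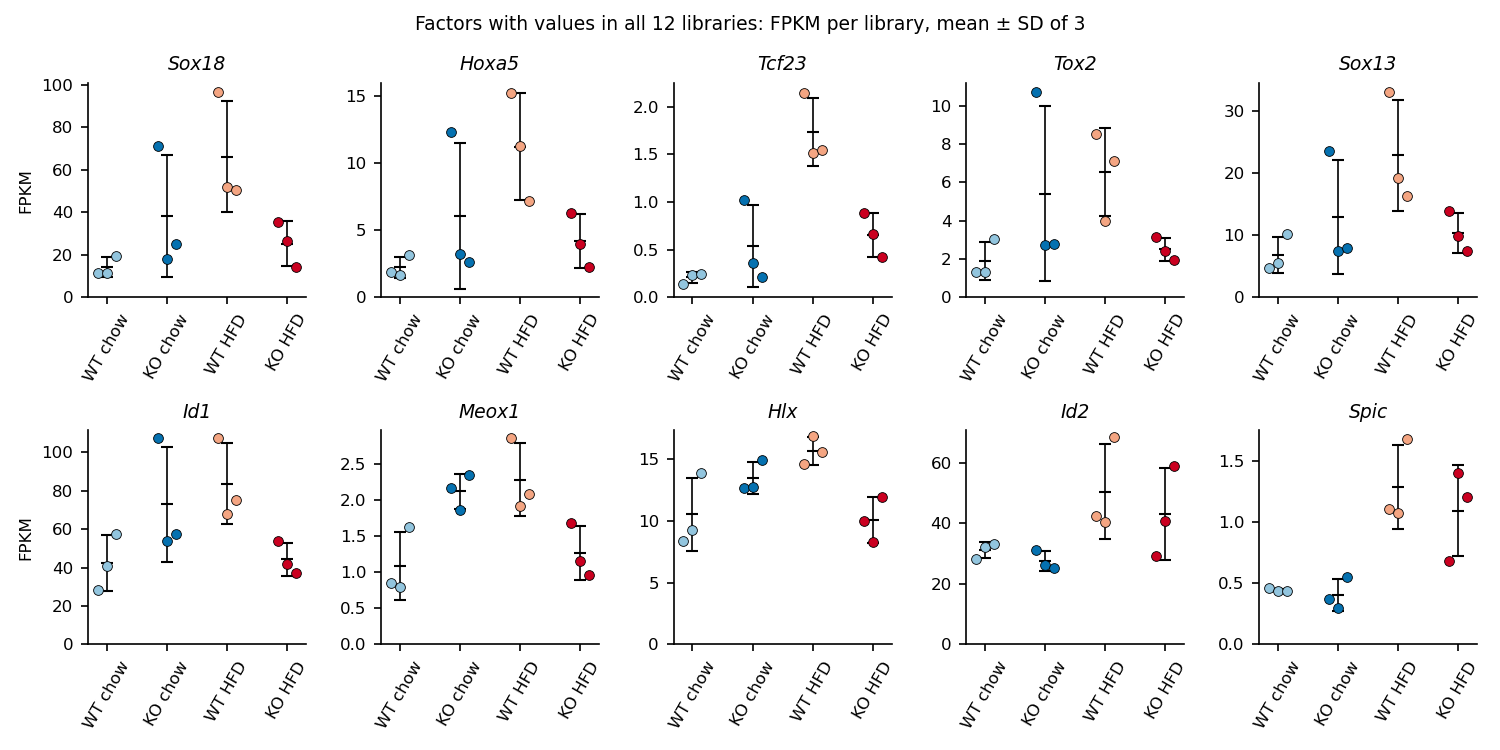
FPKM (y axis, from 0) of 10 of the 16 factors with values in all 12 libraries, 1 point per library with the mean and SD of 3, in WT chow, KO chow, WT HFD and KO HFD. Sox18, Hoxa5, Tcf23, Tox2 and Sox13 are high in WT HFD and in KO chow replicate 1, while Spic is higher on HFD in both genotypes.

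The other 6 factors did not pass. Spic had 0.457, 0.440 and 0.441 FPKM in WT chow, 1.10, 1.07 and 1.68 in WT HFD, 0.372, 0.295 and 0.553 in KO chow and 0.683, 1.40 and 1.20 in KO HFD. Its interaction was −0.10 ± 0.46 (adjusted p = 0.919), within 1 standard error of 0. Meis3 had 5.36, 6.98 and 5.92 FPKM in WT chow, 3.97, 3.11 and 3.75 in WT HFD, 5.77, 6.55 and 5.18 in KO chow and 3.64, 4.90 and 3.88 in KO HFD, so that every HFD library was below every chow library (0.26 ± 0.27, adjusted p = 0.574). Id2, Mycn, Tfec and Tcf21 had interactions of −0.06 ± 0.39, 0.24 ± 0.67, −0.14 ± 0.54 and −0.61 ± 1.13, none with an adjusted p below 0.79. A p that misses the threshold does not show that diet acted alike in both genotypes.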

How the data were processed

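RNA of CD31-selected lung cells was measured in 12 libraries, 3 mice in each of 4 groups. Per the submitters' processing notes, reads were aligned with HISAT2 to mm10, counted with featureCounts and compared with DESeq2, and tool versions, annotation release and strand setting are not given in the sources used here. The authors deposited 4 tables, each with raw counts per gene, a normalized signal (the count divided by a size factor per library), FPKM, gene length, and columns of their own comparisons. Their deposited p-value columns were read only for the listing threshold and the number of genes adjusted (18463, 23768, 18703 and 19511 for KO against WT on chow, diet in WT, KO against WT on HFD and diet in KO), and their fold changes and group means were not used.

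From the counts, edgeR 4.0.16 (quasi-likelihood test, R 4.3.3) was fitted on all listed genes of a table with the authors' size factors, with Benjamini-Hochberg adjustment over the genes the authors had adjusted. All tests were two-sided. An exact permutation test of 3 against 3 libraries cannot go below p = 0.1 and was not used. The interaction of genotype and diet was fitted on 975 genes with counts in all 12 libraries. On simulated counts for diet in WT (6559 genes), 106 of 112 genes changed by 1.5 on the log2 scale were recovered at an unadjusted p under 0.05, and 70 of 88 changed by 1. At an adjusted p under 0.05 these were 73 of 112 and 23 of 88. The 6559 were the listed genes with a mean of 10 or more normalized counts. The reported p-values for diet in WT were adjusted over 23768 genes. Recovery under that wider adjustment, or for genes outside the listing, was not tested.

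The alternatives were DESeq2 1.42.0, limma 3.58.1 (log2 of normalized count plus 1), TMM, library totals, a mean of at least 10 normalized counts, a log2 fold change over 1, a replicate block and leaving out each library. Scaling to the endothelial markers was added after seeing the data. The factors and gene lists were chosen with earlier results of these data known. Genes named are, per comparison and family, up to 3 higher and 3 lower with the lowest p and 50 or more normalized counts on average in the group with more, those in both genotype tables or in all 4, the endothelial factors, and the most abundant of each role group. Not all genes this rule takes are described, and some genes are not reported here. Promoters are RefSeq, GRCm38.p6.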

Additional observations from a re-analysis of the deposited data

Results flagged for a closer look

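An interaction of genotype and diet passed the edgeR test for 10 of the 16 factors with counts in all 12 libraries, an outcome that followed the listing. Each of the 10 was listed in a genotype comparison. The others were listed only for diet, with the same sign in both genotypes. The log2 interaction (the change with diet in KO minus that in WT) was −2.91 ± 0.78 for Tox2, −2.87 ± 0.82 for Hoxa5, −2.83 ± 0.73 for Sox18, −2.77 ± 0.71 for Tcf23, −2.07 ± 0.68 for Sox13, −1.80 ± 0.46 for Meox1, −1.70 ± 0.47 for Id1, −1.38 ± 0.38 for Tfap4 and −0.99 ± 0.31 for Hlx, with adjusted p from 0.0160 to 0.0232. Bsx, a homeobox gene of the hypothalamus, had an interaction of 8.76 ± 2.66 (adjusted p = 0.0216) that rests on near-zero counts, with reads of 16, 3 and 0 in KO HFD and 0 in every KO chow library. Without 1 library at a time, Sox13 passed in 7 of 12 fits, Bsx in 10 of 12 and the other 8 factors in 12 of 12. The values ranged from −3.44 to −1.93 for Tox2, −3.30 to −1.81 for Hoxa5, −3.17 to −2.01 for Sox18, −3.14 to −1.87 for Tcf23 and −2.48 to −1.30 for Sox13. The genes could enter this test only by being listed in the tables, and 55.3% of the 975 genes tested passed, so the share of factors (62.5%) is near that of all genes. Endothelial markers were higher with HFD in WT (median log2 fold change 1.30) and lower in KO against WT on HFD (−0.98), Id1, Meox1, Hlx and Tfap4 turned direction in both comparisons with endothelial-marker scaling, and the interaction was not fitted with that scaling, so the part of endothelial RNA in these values was not tested.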

How the results depend on the processing

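With 1 choice changed at a time, no count or named difference between 2 groups turned direction under the planned settings. Of the interactions that did not pass, 5 changed sign without 1 library (Mycn −0.52 to 0.60, Tcf21 −1.09 to 0.35, Tfec −0.54 to 0.14, Spic −0.31 to 0.18 and Id2 −0.35 to 0.23). For KO against WT on chow, the 12 unadjusted calls became 7 with the replicate block, 6 with a log2 fold change over 1 and 2 to 13 without 1 library, and the 3 endothelial factors called became 5 with DESeq2, 6 with TMM and 0 to 6 without 1 library. For diet in WT, 77 calls became 50 with a log2 fold change over 1 and 50 to 70 without 1 library, and the 20 adjusted calls became 59 with DESeq2, 31 with TMM, 0 with the replicate block and 0 to 32 without 1 library. The 18 endothelial factors became 1 when scaled to the endothelial markers and 12 to 17 without 1 library. For KO against WT on HFD, 48 calls became 23 with a log2 fold change over 1 and 27 to 38 without 1 library. The 0 adjusted calls became 15 with DESeq2 and 21, all higher in KO, when scaled to the endothelial markers. The 9 endothelial factors became 0 when scaled to the markers. For diet in KO, 20 calls became 8 with a log2 fold change over 1 and 10 to 15 without 1 library, and the 4 endothelial factors became 2 with limma and 1 to 4 without 1 library. The interaction count of 10 was 8 to 10 without 1 library. The cause of these shifts was not tested. Shares of all listed genes under these settings, including the replicate block and the fits without 1 library, are not given here. The changed counts therefore cannot be read as particular to the factors. Correlations of same-numbered libraries across groups ran from −0.14 to 0.21, and those of differently numbered libraries from −0.42 to 0.37. They were taken on values centred within groups of 3, so they cannot settle whether shared replicate numbers pair the mice. With the block 72 factors were called for diet in WT, 48 for KO against WT on HFD, 20 for diet in KO and 10 for the interaction. Factors with few reads, such as Uncx, Bsx and Hoxd10, are limited by depth, and factors outside a table were not analysed there.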
